A study of Homo sapiens with 10 samples.

Results

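RNA-seq libraries of A253 cells were compared between Cl1, a clone made by deleting exon 2 of DUSP1, and control cells that carried a guide RNA against dTomato, a fluorescent protein gene that human cells lack. The comparison used 4 of the 10 libraries of the series, namely the 2 libraries of Cl1 and the 2 control libraries sequenced beside them, chosen by their labels. The count table of this experiment held 6 libraries, the other 2 being of a sister clone, Cl10. A253 is a human line from a squamous cell carcinoma of the salivary gland, and all libraries came from cells grown in DMEM with serum. Both groups had been transduced with lentiviral guide RNAs under puromycin selection and then with a Cas9 vector under blasticidin selection, so Cas9 and guide expression were common to them. The labels give Cl1 as a DUSP1 knock-out, and the study's text describes its deletion as heterozygous (DUSP1-/+). Cl1 grew from 1 cell, and whether the control was a clone or a pool is not stated in the sources used here, so the effect of the guides and the differences that 1 clone carries cannot be told apart. The labels do not say whether the 2 libraries of a group came from separate cultures, and all p-values below measure only the spread between these libraries, which may be technical.

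DUSP1 encodes a nuclear phosphatase that removes phosphate from both the threonine and the tyrosine of activated MAP kinases, the JNK, p38 and ERK families. It is itself an immediate-early gene, switched on within minutes by growth factors and stress, and so closes a negative feedback loop. MAP kinases act on transcription largely through AP-1, dimers of FOS and JUN proteins, and through the ETS and EGR factors, and in squamous epithelium the same pathways set the balance between basal cells, the differentiating suprabasal layers and inflammatory signalling.

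The deletion was made with a pair of guides on either side of exon 2. They are shown here with the 3 bases of the PAM that follows each in the genome (hg38) in capitals, and both lie on the plus strand, while DUSP1 is read from the minus strand.
sgHDUSP1_int1_F: gctggaagtttacatcggaaAGG
sgHDUSP1_int2_F: ggaactaagcccatttgcctGGG
The first matched chr5:172770388-172770407 in intron 1 and the second chr5:172769936-172769955 in intron 2, and the expected cut positions were 452 bases apart. Exon 2 (chr5:172770161-172770306) holds 146 bases of coding sequence, which leaves a remainder of 2 after division by 3, so that joining exon 1 to exon 3 shifts the reading frame. The counts are per gene, not per exon, and do not show which DUSP1 allele a read came from.

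Library totals ranged from 49840300 to 70986593 counts, and the 10 most counted genes held from 4.99% to 5.42% of them. Epithelial and basal squamous markers were high in all 4 libraries, with 273528 and 284343 normalised counts of KRT5 in the control and 356241 and 360408 in Cl1, where a normalised count is the count scaled by TMM factors to the mean library. Among leukocyte markers PTPRC, CD3E and LYZ had at most 14 raw counts in any library and TYROBP had 0, while CD14 had from 370 to 911. The fibroblast marker LUM had 0 and COL1A1 from 1432 to 2095, and the endothelial marker PECAM1 had at most 2 and VWF from 141 to 379. The control libraries differed from each other by gene length. Among 11612 genes with a mean of at least 5 CPM (the count scaled to the library total), the median log2 ratio of control replicate 2 over replicate 1 was 0.19 among genes of 66 to 3010 annotated bases and -0.19 among those of 9211 bases or more (the lowest and highest of 5 equal length classes), against -0.07 and 0.02 between the Cl1 libraries. The values of AHNAK, FN1 and FBN1, whose transcripts are long, are therefore given by library.

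Of 20153 tested genes, 861 (4.27%) were called higher in Cl1 and 659 (3.27%) lower, 7.54% in all, by edgeR's quasi-likelihood test at a Benjamini-Hochberg adjusted p under 0.05 and a difference beyond 2-fold. The median log2 fold change of all tested genes was -0.01. Among the calls the median absolute log2 fold change was 1.52 for higher and 1.45 for lower genes, and 234 higher and 152 lower genes lay beyond a log2 fold change of 2. Calls were unequal across expression levels, since 72 of 4688 genes with at least 50 CPM were called higher and 15 lower, against 403 and 304 of 5273 genes under 1 CPM. The shares of all tested genes set beside the gene lists below are not matched for level. Of 14368 protein-coding genes 548 were higher and 414 lower, and of 3615 long non-coding RNA genes 202 and 177. The libraries of the groups did not overlap in 858 of the 861 higher and in all 659 lower genes, and this was also so for 63.5% of all tested genes. The plot of level against difference shows both tails.

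**Figure D1:**
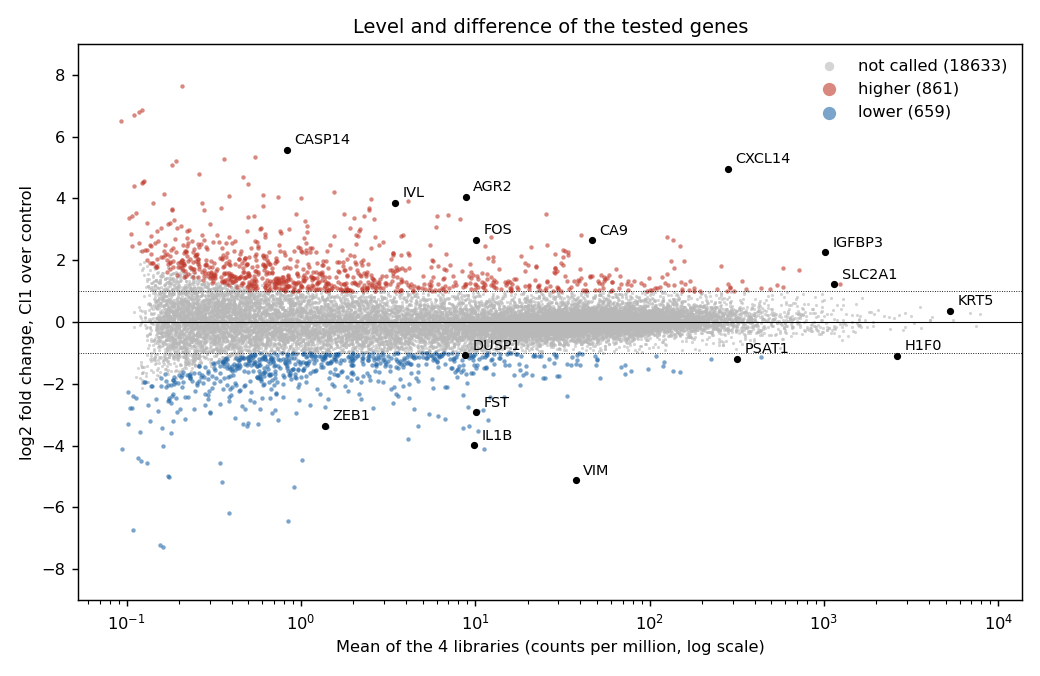
Each point is a tested gene, by its mean over the 4 libraries (CPM, log scale) and its log2 fold change in Cl1 over control, with dotted lines at a 2-fold difference. Among genes with high counts CXCL14 and IGFBP3 stand out above and VIM below, while KRT5 lies near 0. LINC02582 and FLRT3, at 0 counts in Cl1, are not drawn.

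The largest increase among genes with at least 5 CPM was that of CXCL14, a chemokine made by epithelial cells. The gene lies at chr5:135570679-135579279 on the minus strand. It had 1068 and 1044 normalised counts in the control libraries and 29195 and 36765 in those of Cl1, a log2 fold change of 4.96 (SE 0.16, adjusted p = 3.39e-09), or 31.2-fold. AGR2, a disulphide isomerase of secretory epithelia, rose from 50.7 and 70.00 to 1053 and 938 (log2 fold change 4.06, SE 0.18, adjusted p = 5.71e-08). In both genes the Cl1 libraries lay close together and more than 10-fold above the control.

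The other members of the 12 largest increases were of several kinds. CLEC7A (dectin-1, a receptor for fungal glucans) had 238 and 257 counts in the control and 2404 and 3199 in Cl1. FOXN1, a transcription factor of hair follicle and thymic epithelium, had 68.2 and 68.9 and 578 and 960.0. PRSS8 (prostasin, a membrane serine protease of differentiating epithelium) rose from 180.1 and 197 to 1274 and 1289.7. DOCK2, a Rac activator, CHRNA9, a nicotinic receptor subunit, C10orf99, an antimicrobial peptide gene, S100A9, GPNMB, FOS and CA9 completed the group, with log2 fold changes from 2.65 to 3.44. The groups did not overlap in any of the 12, as in 858 of the 861 higher genes and 63.5% of all tested genes.

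The largest decrease was in LINC02582, a long non-coding RNA at chr18:73324941-73349879. It had 1195 and 1261 normalised counts in the control and 0 counts in both Cl1 libraries, at least 338-fold lower against a floor of 3 counts per library, which is 3.64 normalised counts in the shallower Cl1 library and covers counting error only. FLRT3 (chr20:14322985-14337614), a membrane adhesion protein, had 259.7 and 306 in the control and also 0 in Cl1, at least 77.7-fold lower. Only these 2 genes met the rule for absence in one group, which asked for at most 3 raw counts in both of its libraries and at least 100 normalised counts in both of the other.

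VIM (chr10:17228241-17237593), the intermediate filament protein vimentin of mesenchymal cells, fell from 4015 and 4824 to 143 and 108 (log2 fold change -5.12, SE 0.17, adjusted p = 3.39e-09), 34.8-fold. IL1B, the secreted inflammatory cytokine, fell from 1141 and 1093 to 67.2 and 75.2 (log2 fold change -3.98, SE 0.16, adjusted p = 2.39e-08). The 12 largest decreases also held IL24, the amino acid transporter SLC6A15, the phospholipase PLA2G4A, the cyclooxygenase PTGS2, the Wnt antagonist NKD2, the activin antagonist FST, the uncharacterised C6orf99 and LINC00707, with log2 fold changes from -3.53 to -2.92. BOLA2B was called lower as well, but its control libraries had 2457 and 106 counts against 85.8 and 63.0 in Cl1, so 1 library carried it, and its reads can be shared with a near-identical copy.

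**Figure D2:**
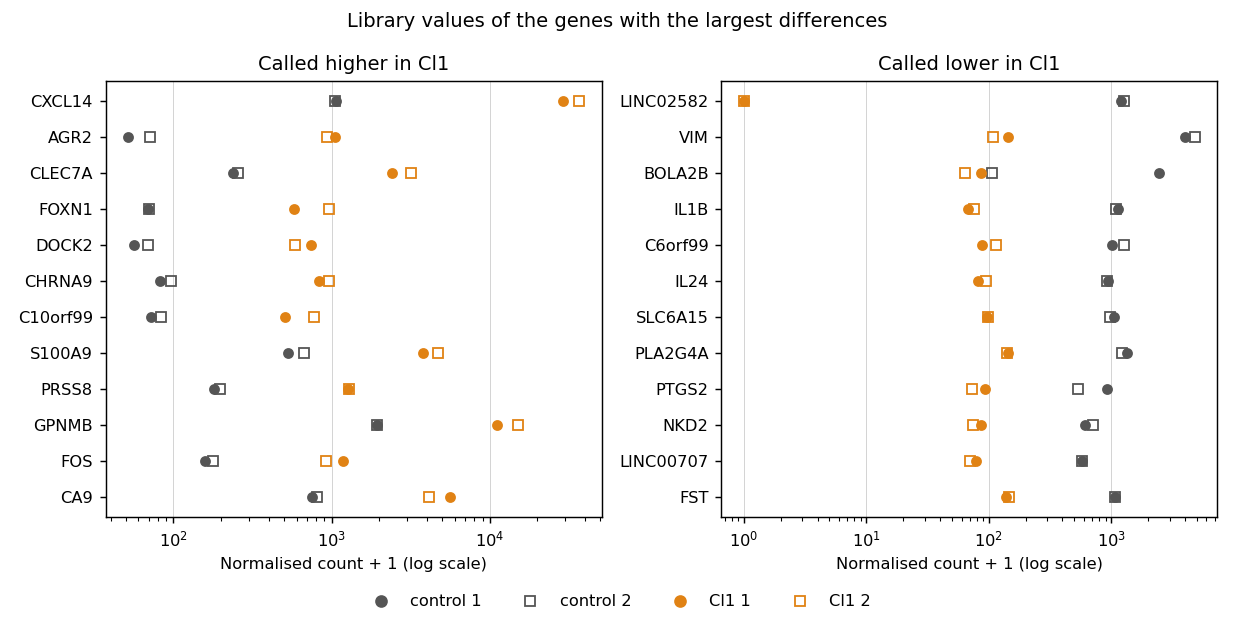
Normalised counts plus 1 (log scale) of each library for the 12 higher and the 12 lower genes with the largest log2 fold change among called genes of at least 5 CPM. In BOLA2B the open control square lies beside the Cl1 libraries, and in the other 23 genes the groups are far apart.

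The called genes with the highest counts were a different set. IGFBP3, which binds insulin-like growth factors in the medium, had 21250.0 and 21178 normalised counts in the control and 108066 and 93983 in Cl1 (log2 fold change 2.25, adjusted p = 6.11e-07). The glucose transporter SLC2A1 rose from 41313 and 41118 to 105381 and 87781, the surface glycoprotein CD24 from 19607 and 20976 to 64312 and 66982, and SEL1L of the endoplasmic reticulum degradation complex from 24261 and 19461 to 51421 and 45511. AHNAK, a giant scaffold protein with a very long transcript, had 61265 and 27641 in the control and 104520.0 and 102434 in Cl1, and without control replicate 2 its log2 fold change was 0.76 in place of 1.22 and it was no longer called.

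Among the highly counted genes that fell were both replication-independent linker histone genes, H1F0 from 218239 and 210943 to 105591 and 96475 and H1FX from 35525 and 36086 to 17216 and 15427. PSAT1, of serine synthesis, fell from 26595 and 26549 to 10393 and 13040.2. UCHL1, a deubiquitinating enzyme, had 16906 and 20834 in the control and 8862 and 7756 in Cl1, and the interferon-stimulated gene IFI27 had 12494 and 14580.2 and 4264 and 4527. The groups did not overlap in any of these 5 genes, as in all 659 lower genes and 63.5% of all tested genes. Since bulk RNA was measured, fewer cells that express a gene and less RNA per cell cannot be told apart.

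DUSP1 (chr5:172768096-172771195, minus strand, hg38) had 769 and 657 normalised counts in the control libraries and 315 and 366 in those of Cl1, so that transcript remained. Its log2 fold change was -1.07 (SE 0.15, adjusted p = 0.000292), a decrease of 2.1-fold. This value lies just past the 2-fold limit, and it was -0.955 (adjusted p = 7.27e-08) without control replicate 1 and -0.96 (adjusted p = 0.00137) without Cl1 replicate 1. Among the 50 tested genes nearest to DUSP1 the median was -0.28, and the DUSP1 value after subtracting it was -0.79. By Western blot the study saw no DUSP1 protein in this clone, and protein is not measured by these RNA counts.

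Of the 11 MAP kinase phosphatases tested, 2 were called lower and 0 higher, beside 3.27% and 4.27% of all tested genes. The 2 were DUSP4 and DUSP1 itself, the target of the guides. The median of the 11 was -0.05, from -0.16 without Cl1 replicate 1 to 0.08 without Cl1 replicate 2. DUSP4, a nuclear phosphatase related to DUSP1, fell more than DUSP1, from 2304 and 2008 to 846 and 767 (log2 fold change -1.42, adjusted p = 6.1e-06). DUSP5, the nuclear phosphatase specific for ERK, was at -0.47 (adjusted p = 0.0092). The cytoplasmic ERK phosphatase DUSP6 had 421 and 492 in the control and 922 and 713 in Cl1, and DUSP2 157 and 206 and 347 and 344, log2 fold changes of 0.85 and 0.94 that passed the test (adjusted p = 0.00196 and 0.00223) within the 2-fold limit. The phosphatases therefore moved in both directions.

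Immediate-early genes are transcribed within minutes of MAP kinase activation and need no new protein. Of 24 tested, 4 were called higher and 0 lower, beside 4.27% and 3.27% of all tested genes. The median log2 fold change of the 24 was 0.26 against -0.01 over all tested genes. FOS had 157 and 178 normalised counts in the control and 1180.1 and 927 in Cl1 (log2 fold change 2.66, SE 0.16, adjusted p = 4.63e-07). EGR1 had 582 and 567 and 1429 and 1560.0, FOSB 99.7 and 76.7 and 212 and 246, and EGR3 6.99 and 3.33 and 33.6 and 31.5. The groups did not overlap in any of the 4, as in 858 of the 861 higher genes and 63.5% of all tested genes.

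The JUN partners did not pass the test, with log2 fold changes of 0.31 for JUN (adjusted p = 0.052), -0.08 for JUNB (0.654) and -0.18 for JUND (0.295). The AP-1 member FOSL1 fell from 3679 and 3690.0 to 2689 and 2101 (log2 fold change -0.62, adjusted p = 0.00371) and IER3 from 11341 and 11080.1 to 8161 and 6499 (-0.61, adjusted p = 0.0048), both within the 2-fold limit. The FOS family members thus did not move together.

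Genes used as readouts of ERK activity also split. Of 20 tested, 0 were called higher and 5 lower (4.27% and 3.27% of all tested genes), with a median of -0.36. Without the fold limit 6 rose and 9 fell, beside 12.4% and 12.8% of all tested genes. Of the negative feedback members SPRY1 (0.96), SPRY4 (0.81) and DUSP6 rose and DUSP4 and DUSP5 fell. Among those that rose was also the D-type cyclin CCND1, from 26453 and 25316 to 47054 and 43250.3. Several growth factor outputs fell. AREG, an EGF receptor ligand, went from 2451 and 2313 to 1120.0 and 1058 and HBEGF, another, from 315 and 352 to 156 and 148, log2 fold changes of -1.13 and -1.13.

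PHLDA1, a target of growth factor signalling, fell from 13062 and 11341 to 3983 and 4139 (log2 fold change -1.59, adjusted p = 2.69e-06) and the cytokine IL11 from 765 and 977 to 376 and 390.3 (-1.18). The ETS factors ETV4 (-0.88) and ETV5 (-0.65) and the ligand EREG (-0.64) also fell within the 2-fold limit. The member plot of 4 lists shows feedback genes on both sides of 0, with SPRY1, SPRY4 and DUSP6 above it and DUSP4 and DUSP5 below. Without control replicate 2 the value of IL11 was -0.997, just within 2-fold.

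**Figure D3:**
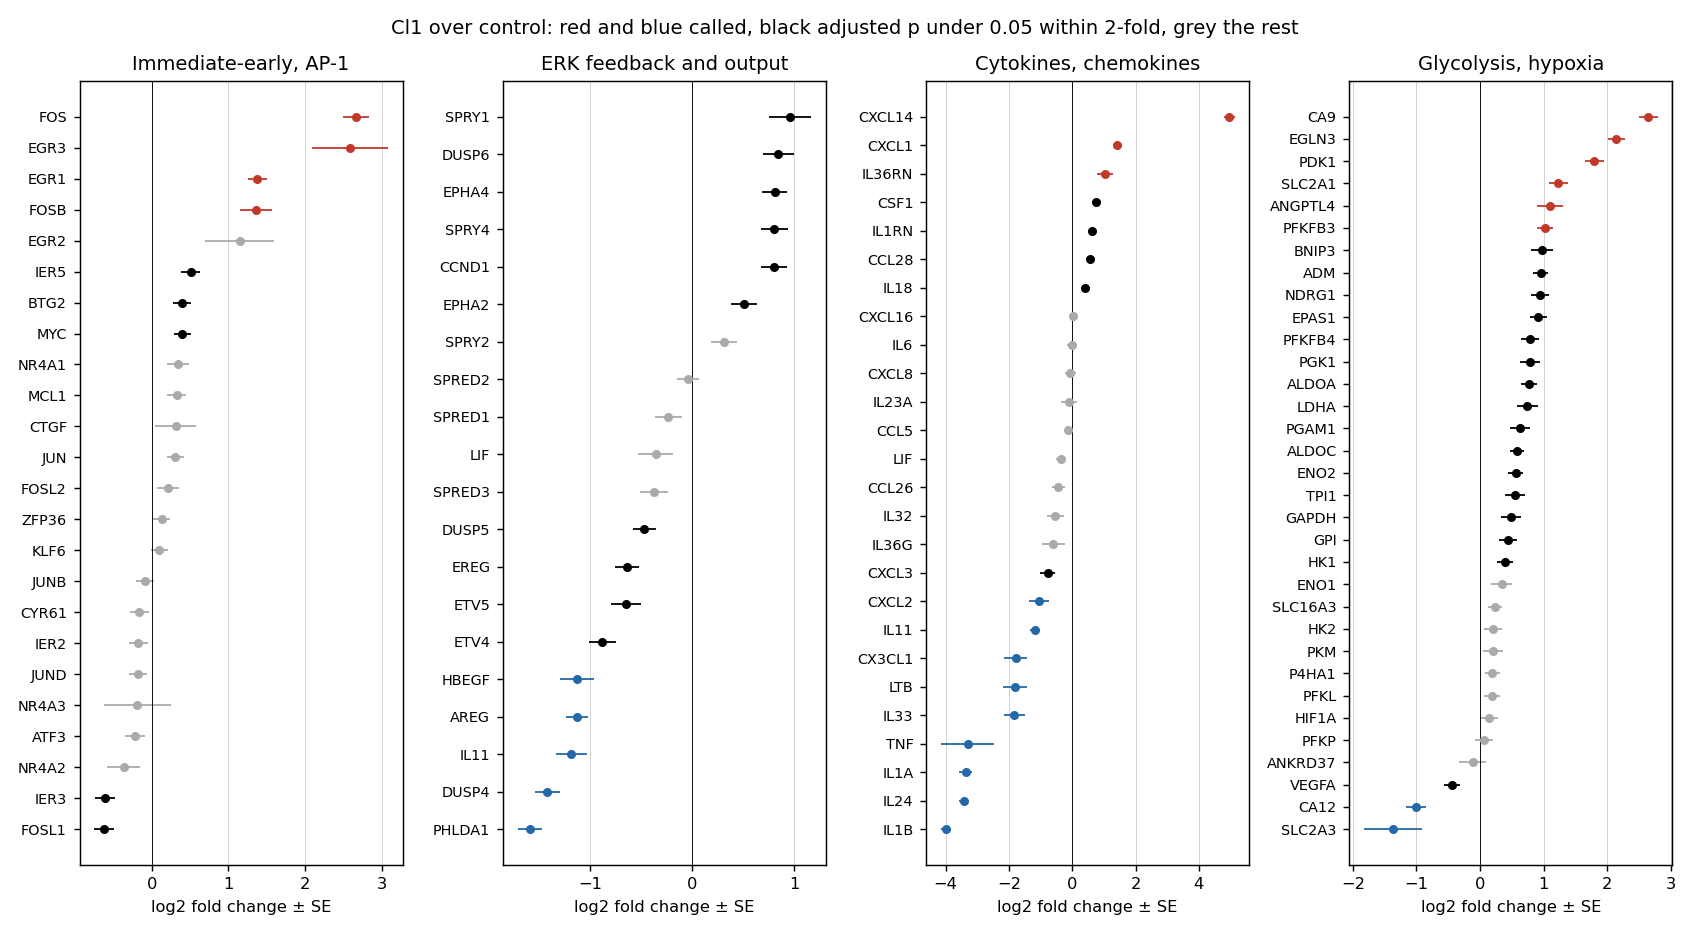
Log2 fold change of Cl1 over control, with the standard error as a bar, for each tested member of 4 gene lists. Red and blue points were called higher and lower, black points had an adjusted p under 0.05 within the 2-fold limit, and grey points did not pass. CXCL14 at 4.96 and IL1B at -3.98 mark the ends of the cytokine list.

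The promoters of called genes were searched for 4 short motifs on either strand, from 250 bases before to 50 after the transcription start (RefSeq, GRCh38.p14), in 12045 tested genes of which 426 were called higher and 331 lower. No motif contains another. The AP-1 site TGANTCA was present in 11.5% of the promoters of higher genes, 7.25% of those of lower genes and 5.10% of all. CACCTG, the box bound by ZEB1 and other E-box factors, was present in 29.1%, 18.4% and 19.7%. The hypoxia element core ACGTG was less frequent in promoters of higher genes, with 19.95%, 24.2% and 25.9%, and the cyclic AMP element TGACGTCA was present in 1.17%, 4.53% and 3.03%. The median GC content was 60.3% in higher, 63.3% in lower and 65.0% in all promoters. Its part in these shares was not tested.

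Matches to TGANTCA stood upstream of the RefSeq start of several genes with large differences. In GENCODE the CXCL14 and GPNMB genes begin further upstream, at chr5:135579279 (minus strand) and chr7:23235967. The sites shown for these genes therefore lie inside the GENCODE gene. The sites are shown with 20 bases on either side, on the strand of the gene and with the motif in capitals, first for 5 genes that rose and then for 2 that fell.
CXCL14: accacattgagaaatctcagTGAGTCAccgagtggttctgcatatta
CASP14: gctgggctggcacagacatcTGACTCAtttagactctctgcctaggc
IVL: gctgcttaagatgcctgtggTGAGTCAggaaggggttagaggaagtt
GPNMB: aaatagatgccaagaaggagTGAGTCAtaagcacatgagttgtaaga
CA9: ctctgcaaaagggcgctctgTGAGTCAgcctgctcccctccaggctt
FST: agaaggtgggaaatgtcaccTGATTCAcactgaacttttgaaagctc
IL11: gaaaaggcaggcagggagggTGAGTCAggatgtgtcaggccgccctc
They lie at chr5:135579057-135579103 (minus strand), chr19:15049270-15049316, chr1:152908403-152908449, chr7:23246621-23246667 and chr9:35673831-35673877 (plus strand), chr5:53480449-53480495 (plus) and chr19:55370533-55370579 (minus). An exact TGAGTCA was thus found in genes that rose and in IL11, which fell. It also stood before PERP, which was not called (log2 fold change 0.58). FST carries TGATTCA, as does SFN (-8.28e-05), and TGACTCA stood before IL1A, which fell further than IL11 (-3.36). Of 81 genes named by rule with a promoter in the table, 14 had a match to TGANTCA before the start, and the genes shown were picked from these. The share of all tested genes with a site before the start alone was not counted. A match in this window is a description of the letters and not of a bound site.

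The largest number of calls in any of the lists fell to genes of the suprabasal and cornified layers of squamous epithelium. Of 42 tested, 14 were called higher and 2 lower, beside 4.27% and 3.27% of all tested genes, and the median log2 fold change was 0.56. CASP14, a caspase of terminal keratinocyte differentiation, had 3.5 and 0 normalised counts in the control and 92.8 and 104 in Cl1 (log2 fold change 5.57, SE 0.55, adjusted p = 1.78e-05). Involucrin (IVL), a scaffold of the cornified envelope, rose from 21.9 and 32.2 to 357 and 421 (log2 fold change 3.86, adjusted p = 3.74e-07). The groups were far apart in both genes, at low counts. The value of CASP14 rests on near-empty control libraries, and leaving out the first or second of them gave 9.55 or 4.77.

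The suprabasal keratin KRT1 had 19.2 and 27.8 counts in the control and 228 and 280.0 in Cl1, the mucosal keratin KRT4 6.99 and 13.3 and 51.3 and 53.3, and the stress keratin KRT16 3256 and 3280.0 and 12121 and 13312. KRT10, the partner of KRT1 in the filament, did not rise with it and fell from 1995 and 2359 to 1744 and 1641 (log2 fold change -0.36, adjusted p = 0.0392). The crosslinking enzyme TGM5 (2.89), the desmosomal cadherin DSC1 (2.55), hornerin (HRNR, 2.17) and filaggrin (FLG, 1.39) rose. Without control replicate 1 the values of DSC1 and HRNR were 4.23 and 3.35, and without control replicate 2 they were 1.91 and 1.62. Among transcription factors of differentiation, ZNF750 rose from 71.7 and 68.9 to 202 and 235 and OVOL1 from 487 and 414 to 1040.4 and 1024. The lipoxygenase ALOXE3 (-1.06) and the protease KLK7 (-1.02) fell. With a library left out, the values of ALOXE3 (-0.97 without control replicate 1) and KLK7 (-0.93 without control replicate 2 or Cl1 replicate 1) were within 2-fold. After subtracting the median of the 50 nearest tested genes FLG was at 0.82, ALOXE3 at -0.92 and KLK7 at -0.69.

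Small proline-rich and S100 proteins are encoded in the epidermal differentiation complex on chromosome 1. Of 23 tested, 8 were called higher and 0 lower (4.27% and 3.27% of all tested genes), with a median of 0.57. S100A9, a subunit of calprotectin, had 531 and 671 in the control and 3798 and 4714 in Cl1 (log2 fold change 2.83, SE 0.15, adjusted p = 1.53e-07), and its partner S100A8 112 and 136 and 285 and 372 (1.41). SPRR3, an envelope precursor of mucosal epithelium, had 11.4 and 3.33 and 72.5 and 53.3. SPRR2E and S100A12 were called at under 31 normalised counts in every library, and SPRR2E lost its call when control replicate 2 or either Cl1 library was left out (adjusted p from 0.0592 to 0.11). S100A12 lost its call without Cl1 replicate 1 (adjusted p = 0.104). The genes around the complex were raised too, since the medians of the 50 nearest tested genes lay from 0.16 (around S100A9) to 0.46 (around SPRR4). After subtracting them the called genes SPRR1A (0.72), S100A4 (0.85) and S100A14 (0.91) were within 2-fold.

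Basal keratinocyte genes moved little. Of 19 tested, 1 was called higher and 0 lower (4.27% and 3.27% of all tested genes), with a median of 0.23. The called gene was KRT15, from 11100.2 and 12086 to 28788 and 29867 (log2 fold change 1.34, adjusted p = 1.35e-05). KRT5 was at 0.36 (adjusted p = 0.108). TP63, the master factor of squamous epithelium, was at -0.36 (adjusted p = 0.091), with 31369 and 23759 in the control and 20683 and 22132 in Cl1. Of 28 squamous and stemness transcription factors 1 was called (7.54% of all tested genes), ZNF750, and their median was 0.17. The basal median was 0.12 without control replicate 2.

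Some markers of glandular and luminal epithelium were higher. Of 48 members 26 were tested, and 8 were called higher and 0 lower (4.27% and 3.27% of all tested genes), with a median of 0.37. Gland markers left untested included AQP5, PIGR and MUC7, with at most 3, 5 and 2 raw counts in any library, and AMY1A with 0. Called genes near the floor in the control, such as LCN2 (6.99 and 3.33), passed the filter on low counts only through Cl1. The count of calls therefore leans towards increases. Besides AGR2, the simple epithelial keratin KRT7 rose from 793 and 928 to 2695 and 2476 (log2 fold change 1.59, adjusted p = 2.45e-06), the membrane mucin MUC1 from 1825 and 1998 to 4796 and 4120.1, and the forkhead factor FOXQ1 from 307 and 347 to 922 and 897. MUC16 (132 and 58.9 to 241 and 312), MUC20 (1.43), the siderophore-binding protein LCN2 (2.43) and the claudin CLDN3 (2.11) were called at lower counts. CLDN3 had 0.874 and 6.67 in the control and 14.1 and 16.97 in Cl1 and was not called when control replicate 1 (adjusted p = 0.293) or either Cl1 library (0.135 and 0.173) was left out. MUC20 was not called without Cl1 replicate 2 (adjusted p = 0.0732).

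Many epithelial adhesion genes rose, by small amounts. Of 32 tested, 2 were called higher, CLDN1 and CLDN3, and 0 lower (4.27% and 3.27% of all tested genes). Without the fold limit 17 rose and 2 fell, beside 12.4% and 12.8% of all tested genes, and the median was 0.41. E-cadherin (CDH1) had 22081 and 19174 in the control and 38182 and 35657 in Cl1 (log2 fold change 0.84, SE 0.13, adjusted p = 0.000733). The desmosomal plakophilin PKP1 (0.98) and the protease ST14 (0.93), matriptase, were close to 2-fold higher. The tight junction scaffold TJP1 (-0.53) and the plakophilin PKP2 (-0.48) fell. CLDN1 was at 0.94 without Cl1 replicate 2.

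Mesenchymal genes were divided. Of 37 tested, 3 were called higher and 8 lower (4.27% and 3.27% of all tested genes), with a median of -0.17. ZEB1, a repressor of epithelial genes, had 139 and 163 normalised counts in the control and 18.6 and 9.7 in Cl1 (log2 fold change -3.35, SE 0.32, adjusted p = 1.37e-05), and TWIST1 881 and 999 and 459.7 and 435 (-1.07). The mesenchymal cadherin CDH11 fell from 1101 and 1100.0 to 167 and 131 and the protease inhibitor SERPINE2 from 6748 and 7287 to 2406 and 2280.0. Fibronectin (FN1), a long transcript, had 1304 and 902 and 436 and 417, and fibrillin (FBN1) 226 and 127 and 65.4 and 47.3. TWIST1 was at -0.97 without control replicate 2.

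Other members of the same list rose. Lysyl oxidase (LOX), which crosslinks collagen, went from 1845 and 1758 to 6264 and 5634 (log2 fold change 1.72, adjusted p = 7.97e-07), and the collagenase MMP13 from 189 and 209 to 386 and 451. SPARC, a matricellular protein, had 44187 and 46459 and 77196 and 72298 (0.72), and TGFBI 24618 and 24965 and 51457 and 45899 (0.97). The list thus did not move one way. MMP13 was just under the 2-fold limit without control replicate 1 (0.996) or Cl1 replicate 2 (0.96).

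**Figure D4:**
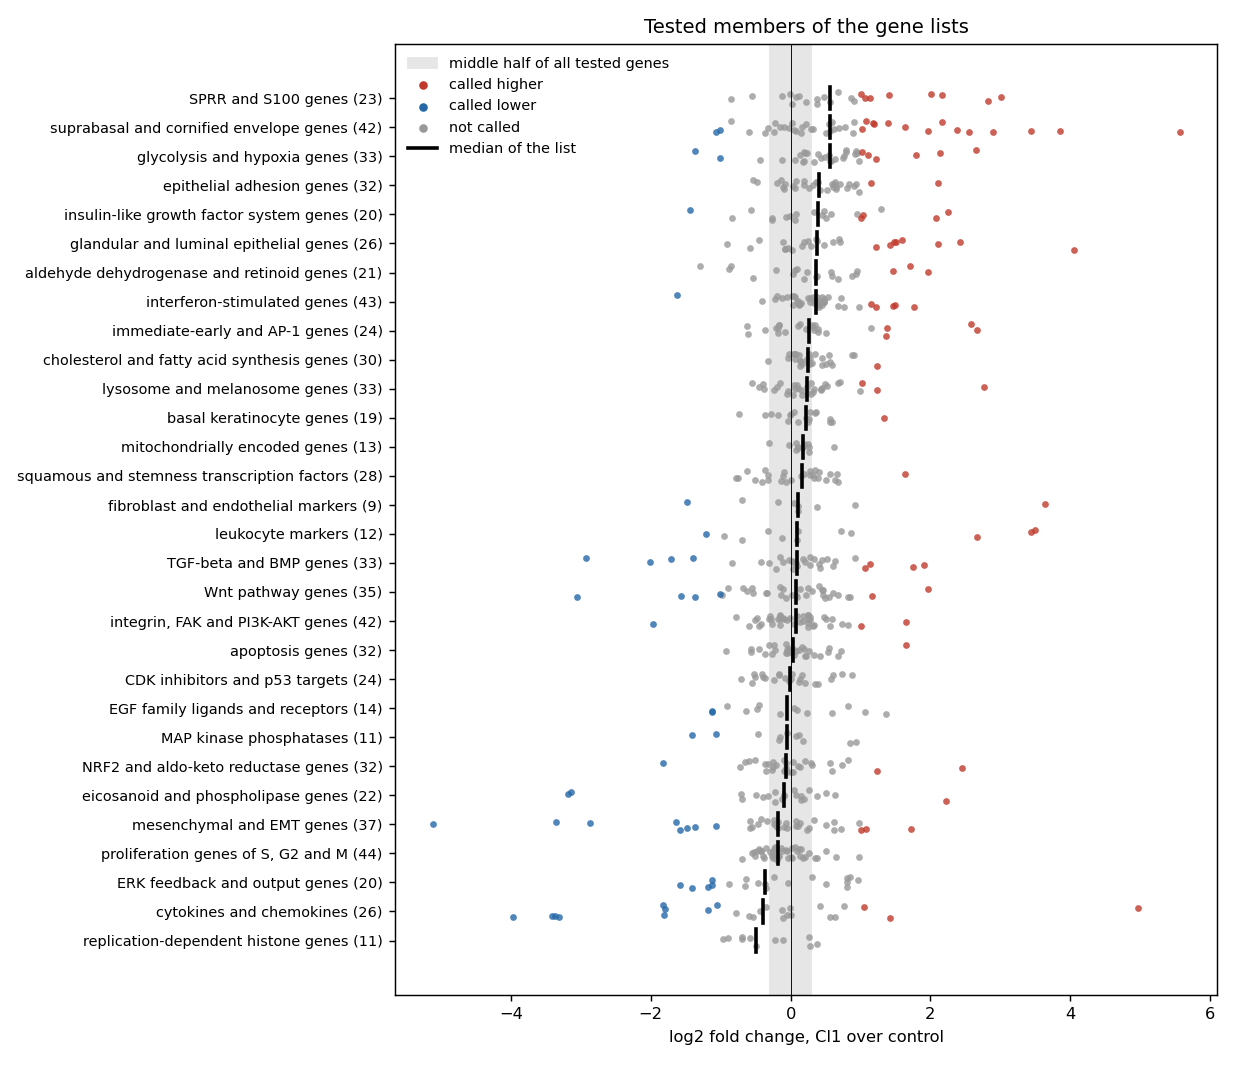
Log2 fold change of Cl1 over control of each tested member of the 30 gene lists (number tested in parentheses), ordered by list median (black bar), with the quartile range of all tested genes as a grey band. SPRR and S100, suprabasal, and glycolysis and hypoxia genes have medians from 0.56 to 0.57. Replication-dependent histone genes have the lowest median (-0.49), and cytokines and ERK outputs also lie below -0.35.

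Several of the strongest decreases were in cytokines. Of 26 cytokines and chemokines tested, 3 were called higher and 9 lower (4.27% and 3.27% of all tested genes), with a median of -0.40. IL1A fell from 557 and 469 to 54.8 and 43.6 (log2 fold change -3.36, SE 0.20, adjusted p = 2.89e-07) and IL24, of the IL-10 family, from 944 and 922 to 81.3 and 94.5 (-3.41). IL33 (-1.83), LTB (-1.81), CX3CL1 (-1.79) and CXCL2 (-1.05) fell at lower counts, and TNF was near the detection limit with 11.4 and 11.1 in the control and 0.884 and 1.21 in Cl1. The median was -0.19 without control replicate 2. Without 1 Cl1 library, CXCL2 (adjusted p = 0.15 without replicate 1 and 0.0637 without replicate 2) and TNF (0.139 and 0.0701) were not called, nor was CXCL2 without control replicate 2 (0.103).

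In the other direction, the neutrophil chemokine CXCL1 rose from 1329.8 and 1314 to 3911 and 3183 (log2 fold change 1.42, adjusted p = 6.42e-06) and the receptor antagonists IL36RN (1.04) and IL1RN (0.63) rose. IL6 was at -0.01 (adjusted p = 0.978) and CXCL8 at -0.06 (adjusted p = 0.846). The summed level of the list was 15607 and 16977 in the control and 46365 and 53057 in Cl1, most of it CXCL14, so the sum rose while the median fell. IL36RN was at 0.85 without control replicate 1.

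Of 22 eicosanoid and phospholipase genes, 1 was called higher and 2 lower, beside 4.27% and 3.27% of all tested genes. PLA2G4A, the cytosolic phospholipase that frees arachidonic acid, fell from 1345 and 1223 to 143 and 139 (log2 fold change -3.18, adjusted p = 5.71e-08), and PTGS2, the inducible cyclooxygenase, from 918 and 539 to 91.9 and 71.5 (-3.14, adjusted p = 3.52e-06). PLA2G4E, a related acyltransferase, rose from 76.9 and 64.4 to 315 and 353 (2.23). The libraries of the groups did not overlap in any of the 3, as in 63.5% of all tested genes.

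Interferon-stimulated genes that passed the test mostly rose, by small amounts. Of 43 tested, 5 were called higher and 1 lower (4.27% and 3.27% of all tested genes), and the median was 0.36. Without the fold limit 22 rose and 2 fell (12.4% and 12.8% of all tested genes). The antiviral genes MX2 (53.3 and 51.1 in the control, 184 and 171 in Cl1), RSAD2 (306 and 273, 798 and 844) and CMPK2 (419.7 and 366, 1101 and 1068) were called higher, with adjusted p = 0.000129, 1.3e-05 and 1.02e-05. IFI27 went the other way, at -1.62 (adjusted p = 2.75e-06).

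The median of glycolysis and hypoxia genes was 0.56, and 21 of 33 rose and 3 fell without the fold limit (12.4% and 12.8% of all tested genes). Of the 33, 6 were called higher and 2 lower (4.27% and 3.27% of all tested genes). CA9, the membrane carbonic anhydrase induced by low oxygen, rose from 746 and 806 to 5571 and 4126 (log2 fold change 2.65, SE 0.15, adjusted p = 2.15e-07). EGLN3, an oxygen-sensing prolyl hydroxylase, rose from 367 and 448 to 1787 and 1796 and PDK1, which keeps pyruvate from the mitochondria, from 626 and 571 to 2369.9 and 1789. PFKFB3 (1.02, and 0.88 without control replicate 2) and ANGPTL4 (1.10, and 0.93 without control replicate 1 or 0.70 without Cl1 replicate 1) were also called.

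The glycolytic enzymes themselves rose by less. LDHA had 53826 and 61813 in the control and 109520.0 and 84058 in Cl1 (log2 fold change 0.74, adjusted p = 0.00529), and PGK1 70631 and 74668 and 141852 and 108737 (0.79, adjusted p = 0.0036). In both, Cl1 replicate 1 stood above replicate 2, and the list median was 0.43 without Cl1 replicate 1 and 0.66 without Cl1 replicate 2. VEGFA, another hypoxia target, fell, at -0.44 (adjusted p = 0.0267), and CA12 (-1.01) and SLC2A3 (-1.37) were called lower. Without Cl1 replicate 2 SLC2A3 was not called (adjusted p = 0.225), nor without control replicate 1 (0.181), and CA12 was within 2-fold without replicate 2 of either group (-0.95 and -0.90).

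In the insulin-like growth factor system, 4 of 20 tested genes were called higher and 1 lower (4.27% and 3.27% of all tested genes). The list median was 0.39. Besides IGFBP3, the binding proteins IGFBP5 (2.07), IGFBP7 (from 3961 and 4110.0 to 8109.6 and 8484) and IGFBP1 (1.01) rose. STC2, a secreted inhibitor of the protease that cleaves such binding proteins, fell from 6521 and 5540.1 to 2356 and 2075 (log2 fold change -1.44, adjusted p = 6.35e-06). The median was 0.23 without control replicate 2, and IGFBP1 was not called without that library (adjusted p = 0.0522) or Cl1 replicate 1 (0.305).

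Of 32 NRF2 and aldo-keto reductase genes, 2 were called higher and 1 lower (4.27% and 3.27% of all tested genes). Without the fold limit 6 rose and 7 fell (12.4% and 12.8% of all tested genes). The median was -0.07, its sign turning from -0.18 to 0.05 as control replicate 1 or 2 was left out. AKR1B10, a reductase of aldehydes and retinal, rose from 2564 and 3010.0 to 14961 and 15541 (log2 fold change 2.45, adjusted p = 1.53e-07), and the epoxide hydrolase EPHX1 from 2306 and 2624 to 5785 and 5801. SLC7A11, the cystine transporter, fell from 5853 and 3866 to 1089.9 and 1669 (-1.82, adjusted p = 6.35e-05).

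Of 21 aldehyde dehydrogenase and retinoid genes, 3 were called higher and 0 lower (4.27% and 3.27% of all tested genes), and the median was 0.37. Without the fold limit 9 rose and 3 fell (12.4% and 12.8% of all tested genes). The called genes were ALDH3B2, from 379 and 389 to 1229.6 and 1275, the retinoic acid hydroxylase CYP26A1, from 48.96 and 52.2 to 206 and 187, and the carotene oxygenase BCO1 (1.46). Of 33 lysosome and melanosome genes 3 were called higher and 0 lower (4.27% and 3.27% of all tested genes). Among the 3 were GPNMB, a lysosome-associated glycoprotein, from 1931 and 1922 to 11157 and 15056 (log2 fold change 2.77, adjusted p = 1.93e-07), and the ganglioside activator GM2A. Of 30 cholesterol and fatty acid synthesis genes 1 was called (7.54% of all tested genes), the sterol desaturase SC5D (1.23). Without the fold limit 10 of these 30 rose and 0 fell (12.4% and 12.8% of all tested genes).

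In the TGF-beta and BMP system, 4 of 33 tested genes were called higher and 4 lower (4.27% and 3.27% of all tested genes). The median was 0.09 (0.03 without control replicate 2, 0.21 without Cl1 replicate 1). The genes called higher were the ligand BMP2 from 782 and 782 to 2724 and 2558, the inhibitory SMAD6 from 774 and 793 to 2863 and 3046, SMAD7 (1.13) and the BMP target ID2 (1.06). The genes called lower were the activin subunit INHBA, from 2164 and 1710.0 to 609 and 569.7, and follistatin (FST), the secreted antagonist of activins, from 1068 and 1077 to 137 and 147 (log2 fold change -2.92, adjusted p = 1.12e-07), as well as the stress cytokine GDF15 (-2.01) and the BMP ligand BMP6 (-1.40). ID2 was at 0.93 without control replicate 1.

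Of 35 Wnt pathway genes, 2 were called higher and 4 lower (4.27% and 3.27% of all tested genes). Without the fold limit 12 rose and 10 fell, beside 12.4% and 12.8% of all tested genes. The median was 0.07 (0.0076 without Cl1 replicate 1, 0.12 without control replicate 1). NKD2, an antagonist induced by the pathway, fell from 610.3 and 708 to 84.9 and 72.7 (log2 fold change -3.05, adjusted p = 2.41e-07), its relative NKD1 from 545 and 363 to 180.3 and 172 and the receptor FZD10 from 395 and 446 to 215 and 201. AXIN2, a feedback target, had 30.6 and 45.6 in the control and 14.1 and 10.9 in Cl1 and was not called without control replicate 2 (adjusted p = 0.0897) or Cl1 replicate 2 (0.0714). The ligand WNT5A, which mostly signals without beta-catenin, rose from 159 and 118 to 538 and 554, and WNT3A from 244 and 252 to 631 and 480.0. FZD10 was at -0.92 and -0.96 without replicate 2 of the control or of Cl1, and WNT3A at 0.95 without Cl1 replicate 1.

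Cell cycle genes gave no calls. Of 44 proliferation genes of S, G2 and M phase, 0 were called, beside 7.54% of all tested genes, and the median was -0.17. That share is not matched for level, and among 4688 genes with at least 50 CPM only 72 were called higher and 15 lower. MKI67 and TOP2A, at 646 and 588 CPM, belong to that class, so 0 calls is not a clear lack. Without the fold limit 3 rose and 11 fell, beside 12.4% and 12.8% of all tested genes. MKI67 had 45067 and 34439 in the control and 41423 and 34278 in Cl1 (log2 fold change -0.07, adjusted p = 0.786), and TOP2A 39755 and 35227 and 35358 and 30912 (-0.18, 0.375). The libraries overlapped in MKI67. Of 24 CDK inhibitors and p53 targets 0 were called. Without the fold limit 6 rose and 5 fell (12.4% and 12.8% of all tested genes). The median of the proliferation genes was -0.29 without Cl1 replicate 1 and -0.05 without Cl1 replicate 2.

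Of 32 apoptosis genes 1 was called (7.54% of all tested genes). BMF, a BH3-only protein that promotes cell death, rose from 933 and 779 to 2453 and 2950.3 (log2 fold change 1.66, SE 0.13, adjusted p = 3.71e-06), while the survival factor MCL1 was at 0.33 (adjusted p = 0.0691) and the list median was 0.03 (-0.0061 without Cl1 replicate 1). Of 42 integrin, FAK and PI3K-AKT genes, 2 were called higher and 1 lower (4.27% and 3.27% of all tested genes). The epithelial integrin ITGB6, which activates TGF-beta, rose from 545 and 572 to 1584 and 1927 (1.65), and the PI3-kinase subunit PIK3R3 from 1215 and 1024 to 1994 and 2514. ITGB3 was called lower at 18.4 and 18.9 and 2.65 and 7.27 counts. Of 13 mitochondrially encoded genes and of 11 replication-dependent histone genes 0 were called, with medians of 0.18 and -0.49. The histone median was -0.28 without Cl1 replicate 1 and the mitochondrial one 0.10 without control replicate 1. ITGB3 lost its call without either control library (adjusted p = 0.0575 and 0.0674) or Cl1 replicate 1 (0.295), and PIK3R3 was within 2-fold without replicate 2 of the control (0.89) or of Cl1 (0.84).

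Markers of other cell types were examined since several leading genes are best known from leukocytes. Of 21 leukocyte markers 12 were tested, and 3 were called higher and 1 lower (4.27% and 3.27% of all tested genes). The summed level of the list was 1757 and 2024 normalised counts in the control and 5002 and 5493 in Cl1. CLEC7A and DOCK2, which prompted the check, were called higher and made most of the difference, so neither the count nor the sum is independent of them. CSF1R, also called higher, had 3.5 and 5.56 in the control and 22.98 and 35.2 in Cl1. It passed the filter on low counts only through Cl1. The defining markers PTPRC (2, 2, 14 and 7 raw counts) and CD3E (3, 0, 2 and 1) were at or near 0 in all 4 libraries. The monocyte marker CD14, which other cells also express, had 362 and 411 normalised counts in the control and 805 and 601 in Cl1 (log2 fold change 0.87, adjusted p = 0.00217), and CD4 was the member called lower, from 58.6 and 45.6 to 22.1 and 23.03. Their part in the result was not tested. Of 17 fibroblast and endothelial markers 9 were tested, with TEK higher (0.874 and 2.22 to 15.03 and 25.5) and ACTA2 lower (85.7 and 97.8 to 25.6 and 41.2). VWF was at 0.93 (adjusted p = 0.0102) and COL1A1 at 0.11 (0.517).

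Along chromosome 5 the genes between DUSP1 and the chromosome end were lower as a block. Of 120 tested genes there, 85% had a log2 fold change below 0, and the median was -0.43. The calls were 2 higher and 12 lower (4.27% and 3.27% of all tested genes). Over the 123 genes in the 30 Mb before DUSP1 the median was 0.12 and 41.5% were below 0, and over all chromosomes these were -0.01 and 51.3%. Over all 820 tested genes before DUSP1 on the chromosome they were 0.01 and 49.8%. The same distal genes had a median of 0.06 between the control libraries and -0.06 between the Cl1 libraries. Against Cl10 their median in Cl1 was -0.40, so the block was lower than in the sister clone as well.

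The neighbours within 1 Mb were on both sides of 0. On the side towards the centromere FBXW11 (0.40, adjusted p = 0.028) passed the test upwards and NEURL1B (-0.52, 0.0191) downwards, and AC022217.3, a long non-coding RNA gene on the opposite strand over DUSP1, was called lower at low counts (-1.43, 0.0475). UBTD2 (0.28), STK10 (0.07), SH3PXD2B (-0.0037) and AC027309.2 (-0.35) did not pass. On the distal side ERGIC1 (-0.39), RPL26L1 (-0.65), CREBRF (-0.62), BNIP1 (-0.90), BOD1 (-0.72), STC2 (-1.44) and the long non-coding AC008429.1 (-1.69) passed the test, and ATP6V0E1 (-0.02), AC008429.2 (0.17) and AC016573.1 (-0.32) did not. BNIP1, for example, had 715 and 831 in the control and 416 and 413 in Cl1, and BOD1 4441 and 4913 and 2938 and 2758. The counts do not measure gene copy number.

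**Figure D5:**
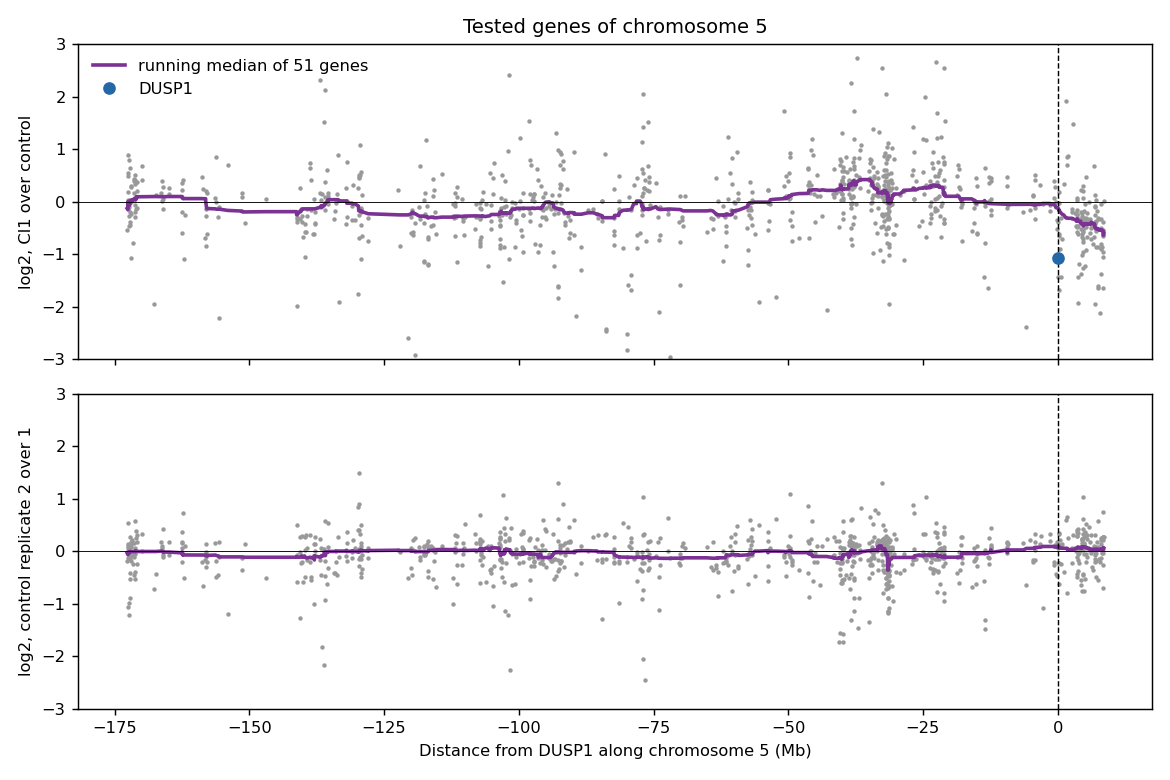
Log2 ratios of the tested genes of chromosome 5 by distance from DUSP1 (Mb), for Cl1 over control above and for control replicate 2 over 1 below, with a running median of 51 genes. To the right of the dashed line the upper median falls below 0 and the lower one stays near 0. The upper panel leaves out 8 and the lower panel 1 of 942 genes, which lie beyond its axis.

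Other stretches stood out by the same measure. Among 272 bins of 10 Mb with at least 20 tested genes, the lowest median was -0.66, in the last bin of chromosome 5. The highest was 0.52, in the bin from 180 to 190 Mb of chromosome 1. All such bins of chromosome 1 from 150 to 250 Mb had medians from 0.19 to 0.52. The epidermal differentiation complex lies in the first of them, with the median of 0.19. Chromosome 11 from 50 to 60 Mb had a median of 0.46, and the quartiles over bins were -0.10 and 0.04. Between the control libraries the bin medians ranged from -0.25 to 0.17. Subtracting the median of the 50 nearest tested genes also put AHNAK (0.81), GM2A (0.93), EPHX1 (0.86), WNT3A (0.81), ABCA12 (0.87) and CA12 (-0.93) within 2-fold.

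The 2 libraries of Cl1 were also set directly against those of Cl10, which does not use the shared control. Of 19818 genes tested, 10.8% were called in either direction. DUSP1 was lower in Cl1 than in Cl10, with a log2 fold change of -0.48 (adjusted p = 0.00817). For VIM the difference was 0.32 (adjusted p = 0.247), for CLEC7A -0.11 (0.407), for DOCK2 0.26 (0.132), for ITGB6 0.00 (0.989) and for SLC7A11 -0.09 (0.617), none of which passed the test. FOS (1.51) and EGR1 (1.43) were higher in Cl1 than in Cl10, DUSP4 (-0.86) and HBEGF (-0.94) were lower, and KRT1 (-1.66) and CXCL14 (-1.07) were lower, all past the test.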

How the data were processed

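Total RNA was extracted with Trizol and a Zymo kit and made into stranded mRNA libraries, per the labels. The authors used HISAT2 for alignment (hg38) and the HTSeq protocol for quantification, and the deposited values are raw counts of 58735 genes. The annotation, the strand setting and the treatment of reads shared by several genes are not given in the sources used here, so overlapping genes and near-identical copies are uncertain. Of the identifiers, 58207 were in GENCODE v44, with 99.91% of the counts, and coordinates and lengths come from it. No column was left unassigned.

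The fit used the 4 libraries alone, in edgeR 4.0.16 under R 4.3.3, with filterByExpr, TMM, glmQLFit and glmQLFTest and Benjamini-Hochberg adjustment. A gene was called where its adjusted p was under 0.05 and its difference exceeded a log2 fold change of 1 in size. Standard errors were derived from the fold change and its F statistic, and the biological coefficient of variation was 0.102. Replicates differed beyond sampling noise (chi-square p under 0.05 in 58.5% of 15278 control genes and 47.3% of 15213 Cl1 genes). On simulated data with 200 of 20153 genes changed 4-fold, 187 were recovered, with 6 false calls. DESeq2 1.42.0 was an alternative.

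Genes were named by a rule: DUSP1, the 12 largest called changes in each direction with at least 5 CPM, the 5 called genes with the highest counts in each direction, up to 4 called members of each of 30 lists (or the 2 with the highest counts), genes absent from one group, and neighbours within 1 Mb. Members of lists named beyond it were chosen after their values were seen. The comparison and the lists were chosen with earlier results of these data known. The SOX2 experiment was not analysed here. Some members of the lists are not reported here by name.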

Additional observations from a re-analysis of the deposited data

Results flagged for a closer look

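Called genes of Cl1 were singled out where a direct edgeR test of Cl1 against Cl10, with 2 libraries each, put them beyond a log2 difference of 2 at an adjusted p under 0.05. There were 14 among the named genes. The values show where the effect relative to the control differed between the clones, and no reason for a difference was tested. The named genes were largely picked by large differences in the same Cl1 libraries. That choice favours genes in which Cl1 lies further from the control than Cl10 does, so the counts by direction carry no weight.

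Of those higher in Cl1 than in the control, 8 were also higher in Cl1 than in Cl10. AGR2 stood 3.41 above Cl10 on the log2 scale, with 984 and 879 normalised counts of this fit in Cl1 and 90.5 and 83.8 in Cl10. CASP14 differed by 3.12, PLA2G4E by 3.10 and CA9 by 2.82. CA9 had 5208 and 3865 counts in Cl1 and 618 and 673 in Cl10, so the strongest hypoxia gene of Cl1 was low in the sister clone. FOXN1 differed by 2.51, ALDH3B2 by 2.47, GPNMB by 2.36 and KRT7 by 2.35.

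Of those lower in Cl1 than in the control, 4 were lower in Cl1 than in Cl10 as well. CDH11 was at -3.80, with 156 and 123 counts in Cl1 and 1910.1 and 2032 in Cl10. IL1B was at -2.54, FST at -2.40 and IL1A at -2.08. The other 2 went the opposite way, since PLA2G4A (2.97) and IFI27 (2.21) were higher in Cl1 than in Cl10 although lower than in the control. With 2 libraries per group no test of a single outlying library was possible.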

How the results depend on the processing

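The 861 higher and 659 lower calls became 200 and 144 when the test itself asked for a difference beyond 2-fold (glmTreat), and 2489 and 2575 with no fold limit. Leaving out 1 library gave from 695 to 1094 higher and from 542 to 702 lower genes. DESeq2 called 610 and 476, scaling by library size alone 737 and 771, no filter on low counts 952 and 786, and a minimum of 10 counts in every library 663 and 514. For DUSP1, leaving out 1 library gave log2 fold changes from -1.18 to -0.955, the values within 2-fold being those that left out replicate 1 of the control or of Cl1, and subtracting the median of the 50 nearest genes gave -0.788. No named gene changed direction of call under any of these settings, and apart from glmTreat between 79 and 94 of the 94 called ones were called. The 79 belong to the minimum of 10 counts, which removed genes from the test. The same minimum of 10 lowered the suprabasal median from 0.56 to 0.32. Between Cl1 and Cl10, 2131 genes were called, and 2056 with all 6 libraries in one fit.

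Control and Cl1 replicates share numbers, but the labels do not tie them. The deviations of same-numbered libraries had a correlation of -0.07 across tested genes (-0.26 in those of at least 5 CPM), so the numbers were not taken as pairs. With a replicate block 904 higher and 683 lower genes were called, and with the numbers crossed, an alternative added after seeing the data, 980 and 725. The libraries are deep, but with 2 per group low genes such as CLDN3, CD4, ITGB3 and AXIN2 pass or miss the threshold with a single library.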

Other observations

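A group of genes outside the 30 lists was drawn up after PSAT1, SLC7A11, STC2 and GDF15 had been seen among the decreases, so it gives no independent support. It held targets of ATF4, the transcription factor of the amino acid response, and enzymes of serine, glycine and one-carbon metabolism. Of 31 tested, 9 were called lower and 1 higher in Cl1 (3.27% and 4.27% of all tested genes). Without the fold limit 23 fell and 1 rose (12.8% and 12.4%), and the median log2 fold change was -0.70. CHAC1, which degrades glutathione, had 1893 and 1594 normalised counts in the control and 351 and 503 in Cl1 (log2 fold change -2.04, edgeR adjusted p = 4.17e-06). Asparagine synthetase (ASNS) had 1016 and 753 and 204 and 364, and the stress factor DDIT3 1789.7 and 1783 and 530.4 and 600.0.

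The 3 enzymes of serine synthesis, PSAT1 among them, all fell. PHGDH, its first enzyme, had 28258 and 29315 in the control and 16048 and 17619.6 in Cl1 (-0.77), and PSPH, its last, 6781 and 6785 and 3592 and 3783 (-0.88). The mitochondrial enzymes SHMT2 (-0.65), MTHFD2 (-0.91) and PCK2 (-1.30) also fell, and so did the tRNA synthetase genes GARS (-0.68) and WARS (-0.61). ATF4 itself was at -0.31 (adjusted p = 0.0867), and the exception that rose was NUPR1 (1.00, and 0.68 without Cl1 replicate 2). The amino acid transporter genes SLC7A5 (-0.10, adjusted p = 0.667) and SLC3A2 (-0.16, 0.388) did not pass the test.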
